A study of Mus musculus with 4 samples.

Results

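The thymosins *Tmsb10* and *Tmsb4x*, the cytoplasmic actins *Actb* and *Actg1*, the actin regulators *Pfn1*, *Cfl1*, *Coro1a* and *Arpc1b*, and the intermediate filament gene *Vim* were followed in colonic epithelium of control mice and of mice labelled as lacking the clock gene *Bmal1*. These 9 genes were picked by symbol from the 16015 genes listed, with earlier results of the same comparison known, so their differences between the groups are given as a description, without p-values. *Tmsb10*, *Coro1a* and *Vim* were lowest relative to control, by 14.5- to 21.2-fold. *Cfl1*, *Pfn1*, *Arpc1b* and *Tmsb4x* were lower by 1.96- to 3.02-fold, *Actb* was nearly level at 1.19-fold lower, and *Actg1* was 1.41-fold higher. These folds are as deposited. After correction for GC content and exon length *Pfn1* lay near 0 on the log2 scale with a sign that depended on the fit. It was below the median of all genes by either fit, while *Actb* turned to higher. *Tmsb10*, *Coro1a*, *Vim*, *Cfl1* and *Arpc1b* stayed lower but by less, and *Tmsb4x* by as much or more. Markers of leukocytes and stromal cells were also lower in the *Bmal1* cKO libraries.

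Bulk RNA sequencing was performed on colonic epithelial cells of 2 control mice, labelled WT, and 2 mice labelled *Bmal1* cKO, to look for genes through which *Bmal1* acts in colitis. All 4 mice drank 3% dextran sulfate sodium (DSS), a polysaccharide that injures the colonic epithelium, for 5 days and were returned to water for 2 days before collection on day 7. By the methods the cKO mice were *Villin-CreERT2; Bmal1* fl/fl, in which tamoxifen starts Cre only in cells that use the villin promoter, and the controls were *Bmal1* fl/fl mice without Cre. The age given for the mice of the study was 2 to 4 months, and whether the controls also received tamoxifen was not given in the sources used here.

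Actin monomers assemble into filaments that give the epithelial cell its brush border and junctional belt and drive the crawling of leukocytes and of cells that close a wound. β-Thymosins hold monomers in reserve, profilin hands them to growing ends, the Arp2/3 complex starts branches, and cofilin and coronin take filaments apart. Vimentin builds a separate filament system that marks mesenchymal cells, endothelium and leukocytes, while resting epithelium uses keratins instead.

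Values are normalized counts, in which the reads on a gene are scaled by a size factor so that libraries of unequal depth can be compared. The libraries held from 10312791 to 14156639 reads on listed genes, and mice that share a group still differed beyond counting noise (chi-square per gene 40.9 for control and 10.1 for *Bmal1* cKO). The targeted gene, listed as *Arntl*, was at 358 and 342 normalized counts in control mice against 341 and 289 in *Bmal1* cKO mice, and its change of -0.16 on the log2 scale did not pass the test (adjusted p = 0.389, limma with Benjamini-Hochberg adjustment over 13983 genes, two-sided), so the direction of every comparison rests on the label *Bmal1* cKO. The log2 fold change of a gene also went with the GC content of its exons, with a Spearman coefficient of -0.62 across 13975 genes, which are not independent replicates. Values are therefore also given after each library had been corrected by loess for the GC content and length of the exons, fitted by least squares, and after a robust version of the same correction that was added once the least-squares values had been seen. The part that GC content plays in any difference was not tested beyond these corrections. The epithelial marker *Epcam* was at 17455 and 21771 normalized counts in control mice against 18588 and 20320 in *Bmal1* cKO mice, so epithelial RNA was plentiful in all 4 libraries. Its log2 fold change was 0.93 after the least-squares correction and 0.63 after the robust one. Other epithelial markers differed from it. Of the 16 listed, 8 were lower and 2 higher as deposited, against 27.7% and 29% of all genes. Among the lower were *Krt18* (-1.39), *Muc2* (-1.41) and *Phgr1* (-4.64). After the least-squares correction 2 of the 16 were lower and 6 higher, and after the robust one 5 and 5.

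*Tmsb10* encodes thymosin β10, a small protein that binds actin monomers. *Tmsb10* (ENSMUSG00000079523, chr6:72957347-72958748, minus strand, GRCm38) was at 2110 and 1961 normalized counts in control mice against 84.3 and 107 in *Bmal1* cKO mice. The groups lay far apart, with the lowest control library 18.4-fold above the highest *Bmal1* cKO library. The log2 fold change was -4.41 (SE 0.15), and only 1.53% of the 13983 genes tested had a lower one. After correction it was -3.08 by least squares and -3.37 by the robust fit.

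*Tmsb4x*, which encodes the more abundant thymosin β4 (ENSMUSG00000049775, chrX:167207093-167209315, minus strand), was at 8560 and 5712 normalized counts in control mice against 3410 and 3717 in *Bmal1* cKO mice. The groups did not overlap, but the control mice differed from each other by more than the *Bmal1* cKO mice did. The log2 fold change was -0.97 (SE 0.20), and it lay between -1.27 and -0.68 when each library was left out in turn. It was -1.0 after the least-squares correction and -1.36 after the robust one. The exons of *Tmsb4x* had a GC content of 46.3%, and the genes within 1 percentage point of it had a median log2 fold change of 0.51.

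The coding sequences of the thymosins are shown because the reads of these related genes must be told apart. They are given 5′ to 3′ from the GENCODE transcripts of GRCm38, with the bases that differ between both genes in capitals.
Tmsb10: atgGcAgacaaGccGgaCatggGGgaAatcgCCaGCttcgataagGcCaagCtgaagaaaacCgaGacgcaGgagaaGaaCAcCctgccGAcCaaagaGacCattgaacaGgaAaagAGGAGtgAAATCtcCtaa
Tmsb4x: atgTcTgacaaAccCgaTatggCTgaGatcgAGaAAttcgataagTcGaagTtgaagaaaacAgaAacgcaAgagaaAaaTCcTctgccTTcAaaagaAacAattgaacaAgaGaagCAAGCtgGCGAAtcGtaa
Each runs for 135 bases and codes for 44 amino acids, and 40 of the bases differ, which leaves 70.4% identity and no identical run longer than 10 bases. Within a library *Tmsb10* stood at 24.6% and 34.3% of the *Tmsb4x* count in control mice and at 2.47% and 2.87% in *Bmal1* cKO mice. This ratio does not depend on the size factors, but the exons of *Tmsb10* had a GC content of 57.8% against 46.3% for *Tmsb4x*. The log2 change of the ratio was -3.45 as deposited, -2.08 after the least-squares correction and -2.01 after the robust one.

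**Figure D1:**
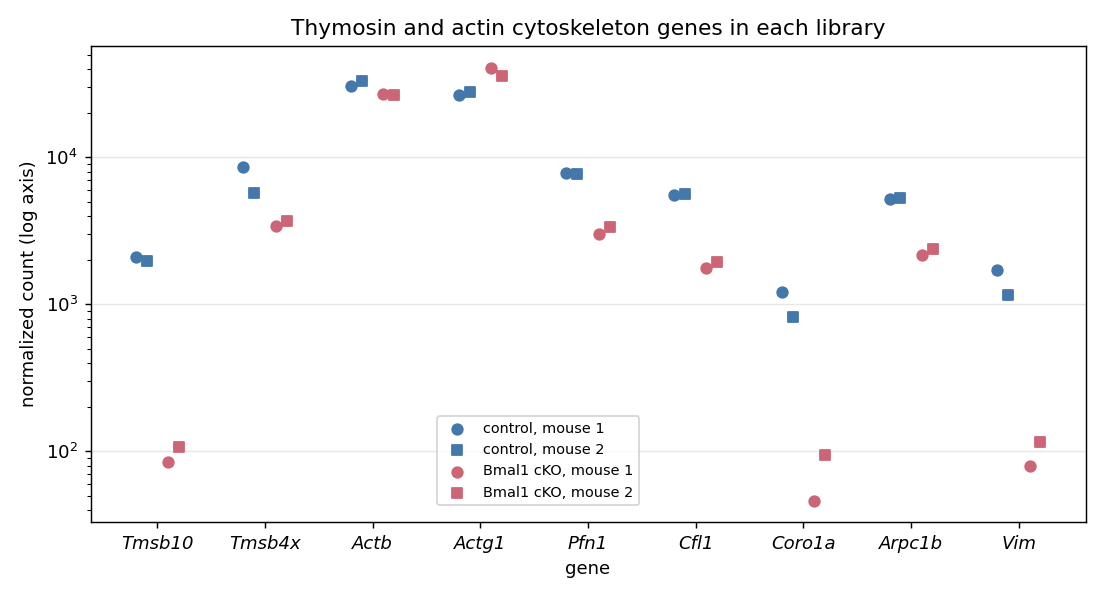
Normalized count on a log axis for each gene, with control mice in blue and *Bmal1* cKO mice in red, circles for mouse 1 and squares for mouse 2. The *Bmal1* cKO points lie below the control points for every gene shown except *Actg1*, with the widest gaps for *Tmsb10*, *Coro1a* and *Vim*.

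*Actb* and *Actg1* encode the β- and γ-actin of non-muscle cells, which differ by a few residues at the start of the protein. *Actb* (ENSMUSG00000029580, chr5:142903115-142906754, minus strand) was at 30714 and 33130 normalized counts in control mice against 26782 and 26652 in *Bmal1* cKO mice. The *Bmal1* cKO libraries were slightly the lower, with a log2 fold change of -0.26 (SE 0.15). The sign turned after correction, to 0.59 by least squares and 0.27 by the robust fit.

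*Actg1* (ENSMUSG00000062825, chr11:120345690-120348542, minus strand) was at 26513 and 27673 normalized counts in control mice against 40766 and 35680 in *Bmal1* cKO mice. It was the only gene of the 9 with both *Bmal1* cKO libraries above both control libraries, and its log2 fold change was 0.49 (SE 0.16). It lay between 0.27 and 1.45 over 16 alternative ways of processing, the lowest with library total scaling and the highest after the least-squares correction. *Actg1* stood at 86.3% and 83.5% of the *Actb* count in control mice and at 152% and 134% in *Bmal1* cKO mice. The order of the actins was thus opposite in the groups. The exons had a GC content of 54.4% for *Actb* and 55.1% for *Actg1*. Their coding sequences are 88.7% identical over 1128 bases with a longest identical run of 62 bases, so a few reads between them, and reads from processed copies elsewhere in the genome, may have been assigned uncertainly.

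Serum response factor (SRF), a transcription factor that is switched on when actin monomers are used up, binds a motif called the CArG box, and BMAL1 with its partner binds the E-box CACGTG. Promoter windows of RefSeq (GRCm38.p6, from 250 bases before to 50 bases after the start) were matched by symbol for 8 of the 9 genes, all but *Actb*. A CArG box, searched as CC, 6 bases of A or T, and GG, was present in 1 of these 8 windows, that of *Actg1*, against 1.63% of 32851 windows. CACGTG on either strand was also present in 1 of the 8, again that of *Actg1*, against 7.15%. The stretch is printed because it holds both motifs, in capitals, and runs from 150 to 61 bases before the start on the minus strand of chr11:120348556-120348645.
Actg1: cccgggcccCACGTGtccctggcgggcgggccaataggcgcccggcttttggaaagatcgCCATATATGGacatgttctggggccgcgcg
The E-box begins 141 and the CArG box 90 bases before the start, and they do not overlap each other. Among motifs of general promoters, GGGCGG on either strand was in 7 of the 8 windows against 35.7%, CCAAT in 3 against 37.4%, and TATAAA in 1, that of *Vim*, against 13.6%. The *Vim* window lay 359 bases from the start of the GENCODE transcript used. A match is a description of the letters and was not tested as a binding site.

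*Pfn1* encodes profilin 1, which loads monomers with ATP and delivers them to formins. *Pfn1* (ENSMUSG00000018293, chr11:70651850-70654644, minus strand) was at 7819 and 7753 normalized counts in control mice against 3011 and 3367 in *Bmal1* cKO mice. The mice of each group lay close together and the groups did not overlap. The log2 fold change was -1.29 (SE 0.10). The exons of *Pfn1* had a GC content of 58.2%, and the 963 genes within 1 percentage point of it had a median log2 fold change of -1.14. After correction it was 0.055 by least squares, where the median of all genes was 0.24. By the robust fit it was -0.23, where that median was -0.04. Its sign thus depended on the fit, while it lay below the median of all genes in both. *Pfn1* stood at 25.5% and 23.4% of the *Actb* count in control mice and at 11.2% and 12.6% in *Bmal1* cKO mice. The log2 change of this ratio was -1.03 as deposited, -0.54 after the least-squares correction and -0.49 after the robust one.

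*Cfl1* encodes cofilin 1, which severs old filaments. *Cfl1* (ENSMUSG00000056201, chr19:5490455-5495201, plus strand) was at 5583 and 5646 normalized counts in control mice against 1778 and 1946 in *Bmal1* cKO mice. This was 3.02-fold lower, with a log2 fold change of -1.59 (SE 0.09) as deposited, -1.08 after the least-squares correction and -1.41 after the robust one. Its relatives were higher as deposited. *Cfl2*, the cofilin best known from muscle, was at 411 and 448 normalized counts in control mice against 948 and 1084 in *Bmal1* cKO mice (log2 fold change 1.24, adjusted p = 0.000959). *Dstn*, which encodes the epithelial depolymerizing factor destrin, was at 16602 and 21649 in control mice against 28928 and 30532 in *Bmal1* cKO mice (log2 fold change 0.65, adjusted p = 0.0265). Neither relative passed the test after either correction, where *Cfl2* was at 0.33 by least squares and -0.030 by the robust fit and *Dstn* at 0.44 and 0.11. *Cfl1* stood at 33.6% and 26.1% of the *Dstn* count in control mice and at 6.15% and 6.38% in *Bmal1* cKO mice. The log2 change of this ratio was -2.24 as deposited, -1.51 after the least-squares correction and -1.53 after the robust one.

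*Arpc1b* encodes a subunit of the Arp2/3 complex. *Arpc1b* (ENSMUSG00000029622, chr5:145114215-145130705, plus strand) was at 5180 and 5291 normalized counts in control mice against 2175 and 2372 in *Bmal1* cKO mice. The fold change on the log2 scale was -1.20 (SE 0.09) as deposited, -0.37 after the least-squares correction and -0.67 after the robust one. *Arpc1a*, the gene for the alternative form of the same subunit, was at 1187 and 1173 normalized counts in control mice against 2043 and 1772 in *Bmal1* cKO mice (log2 fold change 0.69, adjusted p = 0.00375), and it passed the test as higher after both corrections. The *Arpc1b* count was 436% and 451% of the *Arpc1a* count in control mice and 106% and 134% in *Bmal1* cKO mice. These counts are not corrected for length, and the log2 change of the ratio was -1.89 as deposited, -1.50 after the least-squares correction and -1.47 after the robust one.

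*Coro1a* encodes coronin 1A, the coronin of blood cells. *Coro1a* (ENSMUSG00000030707, chr7:126699773-126707787, minus strand) was at 1205 and 817 normalized counts in control mice against 46.3 and 94.6 in *Bmal1* cKO mice. The libraries within each group differed visibly, yet the lowest control library was 8.64-fold above the highest *Bmal1* cKO library. The log2 fold change was -3.88 (SE 0.38), and it was -2.55 after the least-squares correction and -2.82 after the robust one. *Coro1b*, the coronin of epithelial and other cells, was at 1802 and 1703 normalized counts in control mice against 2669 and 2392 in *Bmal1* cKO mice (log2 fold change 0.53, adjusted p = 0.00755), and its log2 fold change was 1.73 and 1.45 after the least-squares and the robust correction. *Coro1a* stood at 66.9% and 48.0% of the *Coro1b* count in control mice and at 1.73% and 3.95% in *Bmal1* cKO mice. The exons had a GC content of 58.2% for *Coro1a* and 57.4% for *Coro1b*.

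*Vim* encodes vimentin. *Vim* (ENSMUSG00000026728, chr2:13573927-13582826, plus strand) was at 1702 and 1160 normalized counts in control mice against 79.2 and 116 in *Bmal1* cKO mice. The groups lay far apart, with a log2 fold change of -3.86 (SE 0.26). It changed little with the correction, to -3.36 by least squares and -3.65 by the robust fit, with a GC content of 52.3% in its exons. *Cfl1*, *Coro1a* and *Arpc1b* share exon sequence with the opposite-strand genes *Snx32* (468 bases), *Bola2* (26 bases) and *Pdap1* (931 bases), and whether reads were counted by strand is not given in the sources used here.

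**Figure D2:**
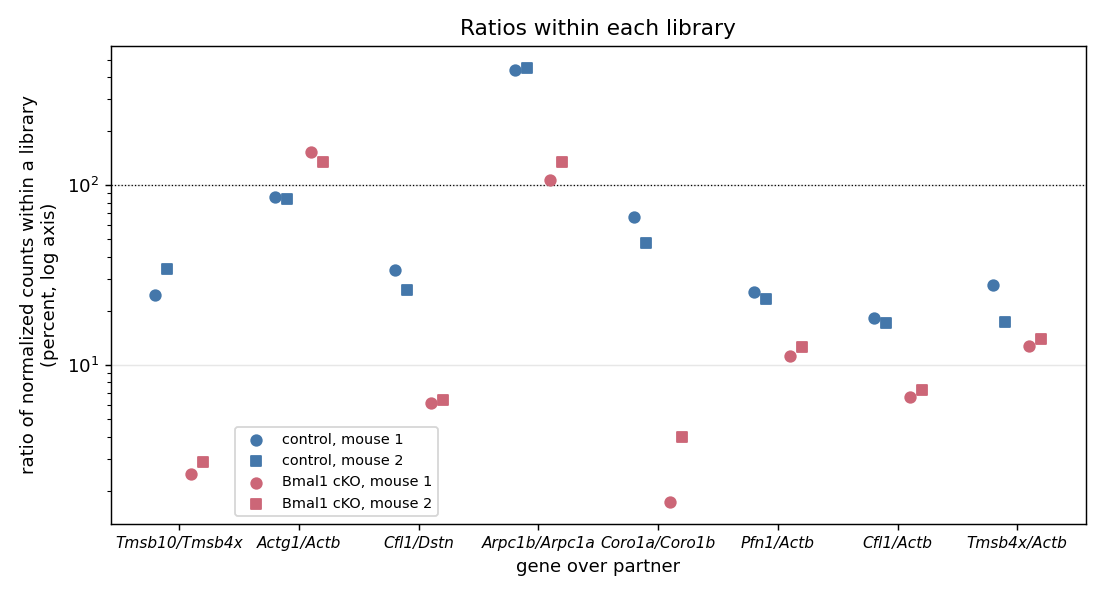
Count of each gene as a percentage of the count of a partner in the same library, on a log axis, with control mice in blue and *Bmal1* cKO mice in red, circles for mouse 1 and squares for mouse 2. *Actg1* over *Actb* is the only ratio shown in which the *Bmal1* cKO mice lie above the control mice, at 152% and 134%.

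By level per kilobase of the principal transcript, which allows genes to be compared, the control mice had most *Actb*, with a mean of 16626 ± 890 (SD, n = 2) normalized counts per kilobase, followed by *Actg1* at 13880 ± 420. *Tmsb4x* at 9292 ± 2622 and *Pfn1* at 9043 ± 54.1 could not be placed in order, since they differed by less than the spread of *Tmsb4x*. *Tmsb10* followed at 2950 ± 152, then *Cfl1* at 2385 ± 19.2 and *Arpc1b* at 1686 ± 25.5, and *Vim* and *Coro1a* came last at 653 ± 175 and 579 ± 157, within their spread of each other. In the *Bmal1* cKO mice *Actg1* was first at 19582 ± 1842 and *Actb* second at 13915 ± 47.6 normalized counts per kilobase. *Tmsb10*, at 138 ± 23.0, had dropped below *Cfl1* (791 ± 50.5) and *Arpc1b* (732 ± 44.8). *Vim* at 44.6 ± 11.9 and *Coro1a* at 40.3 ± 19.6 were again last and within their spread of each other. The 9 genes together took 0.767% and 0.743% of the reads in control mice against 0.570% and 0.531% in the *Bmal1* cKO mice. The actins alone took 0.491% and 0.507% against 0.493% and 0.447%, and the other 7 genes 0.276% and 0.236% against 0.0772% and 0.0841%.

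Set beside all genes, the 9 genes had a median log2 fold change of -1.29 against -0.04 over the 13983 genes tested. By the threshold used for other genes (adjusted p under 0.05, limma), 7 of the 9 counted as lower, against 27.7% of all genes, and 1 as higher, against 29%. The higher one, *Actg1*, was not called with library total scaling, with the replicate block or when any of the 4 libraries was left out, and 6 counted as lower without either *Bmal1* cKO mouse. Both *Bmal1* cKO libraries lay below both control libraries for 8, against 41.7% of all genes, and above for 1, against 40.3%. After the least-squares correction 5 counted as lower, against 11.1%, and 2 as higher, against 27.6%, the latter *Actb* and *Actg1*. After the robust correction 6 counted as lower, against 17.3%, and 1 as higher, against 16.4%. Because the genes were chosen from this comparison, these counts carry no evidence of their own. Among genes within 1 percentage point of the same GC content, a log2 fold change lower than that of *Tmsb10* was found for 2.70%, of *Vim* for 2.64%, of *Coro1a* for 4.98%, of *Tmsb4x* for 9.50% and of *Cfl1* for 14.2%. The share was 26.7% for *Arpc1b*, 41.6% for *Pfn1*, 67.5% for *Actb* and 95.0% for *Actg1*. Read this way *Pfn1* stood near the middle of genes of its base composition and *Actg1* near the top.

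**Figure D3:**
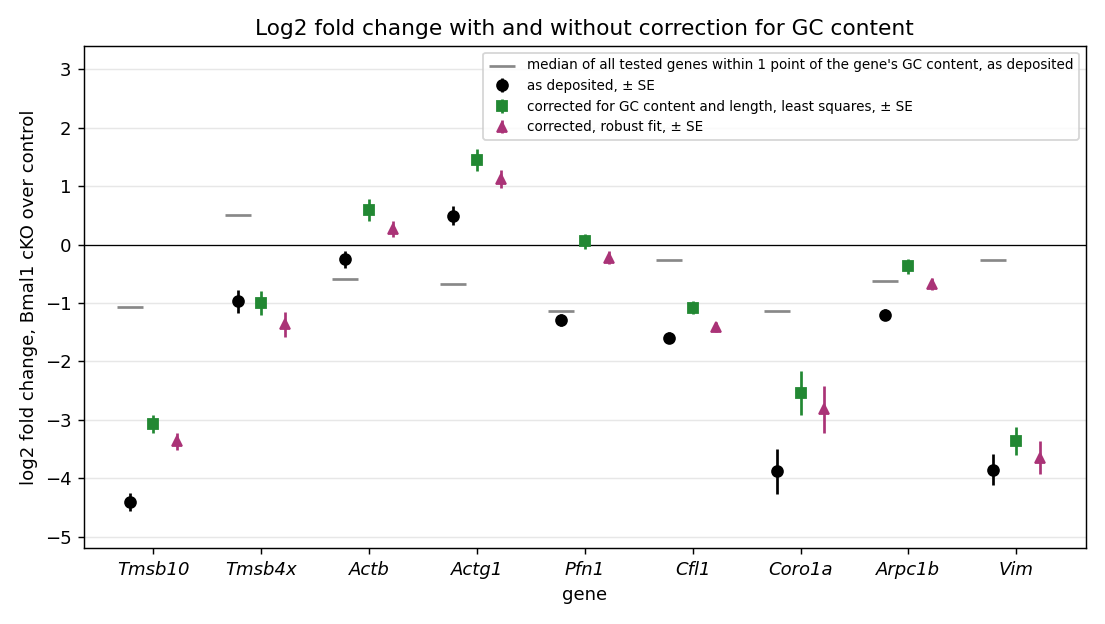
Log2 fold change of *Bmal1* cKO over control with its standard error, as deposited (black circles) and after correction for GC content and exon length by least squares (green squares) or by the robust fit (purple triangles), with the median of all tested genes of like GC content as grey dashes. *Tmsb10*, *Coro1a* and *Vim* stay below -2.5 throughout, whereas *Pfn1* moves from -1.29 to about 0 and *Actb* changes sign.

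The genes that followed each of the 9 most closely over the 4 libraries were found among 9974 other genes whose mean reached 100, by the root mean square difference of centred log2 values. *Tmsb10* was followed by *Junb* (0.12) and *Scand1* (0.15). *Junb*, an immediate early transcription factor, was at 2699 and 2703 normalized counts in control mice against 133 and 165 in *Bmal1* cKO mice. *Coro1a* was nearest to *Fcgr2b* (0.14), which encodes an antibody receptor of B cells and myeloid cells, and *Rpl23a* (0.20). *Vim* was nearest to *Fcgr2b* (0.12) and to *Cfp* (0.16), the gene for the complement factor properdin made by myeloid cells. *Pfn1* was nearest to *C1qbp* (0.005) and *Pfdn2* (0.01), *Cfl1* to *Ccdc124* (0.02) and *R3hcc1* (0.03), and *Arpc1b* to *Os9* (0.02) and *Csnk2b* (0.02). *Tmsb4x* was nearest to *Nr1h3* (0.04) and *Praf2* (0.04), *Actb* to *Dhrs4* (0.01) and *Efl1* (0.02), and *Actg1* to *Ncapd3* (0.01) and *Klf6* (0.02). Among the 9 themselves, *Pfn1* and *Arpc1b* were most alike (0.05), followed by *Cfl1* with *Pfn1* (0.15) and *Coro1a* with *Vim* (0.17). With 4 libraries in 2 groups such likeness mostly reflects a similar fold change.

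Markers of other cell types moved with the same libraries. Of 24 leukocyte markers tested, 19 were lower in the *Bmal1* cKO mice and none higher, against 27.7% and 29% of all genes, and their summed normalized count was 21279 and 33936 in control mice and 5863 and 5462 in *Bmal1* cKO mice. The pan-leukocyte gene *Ptprc* was at 1259 and 745 normalized counts in control mice against 315 and 414 in *Bmal1* cKO mice. On the log2 scale *Ptprc* stood at -1.42 as deposited, a smaller drop than the median of -3.08 over the 24 leukocyte markers. After the least-squares correction *Ptprc* was at -2.37, against a median of -2.72, and after the robust one at -2.61, against -3.03. The only leukocyte marker listed at 0 in both *Bmal1* cKO mice was *Cd2*. Fibroblast markers were lower for 7 of 9, with sums of 17020 and 3501 in control mice against 589 and 679 in *Bmal1* cKO mice, and endothelial markers for 8 of 9, with sums of 2639 and 664 against 84.4 and 114. Smooth muscle and pericyte markers were lower for 5 of 6, with sums of 1024 and 817 against 63.8 and 74.3, and *Kcnmb1*, whose mean was too low for the test, was at 0 in both *Bmal1* cKO mice. Erythrocyte markers were lower for 5 of 5, with sums of 1348 and 2033 against 19.5 and 17.6, where *Hba-a2* was at 0 in both. After the least-squares and the robust correction 18 and 17 leukocyte, 8 and 8 fibroblast, 7 and 6 endothelial, 3 and 3 smooth muscle and pericyte, and 5 and 5 erythrocyte markers were lower. Among 16 markers of colonic epithelium 8 were lower and 2 higher as deposited, 2 lower and 6 higher after the least-squares correction, and 5 lower and 5 higher after the robust one, with sums of 234523 and 325910 in control mice against 181992 and 208381 in *Bmal1* cKO mice. The control mice differed in their fibroblast and endothelial sums in the same direction as *Vim*, *Coro1a* and *Tmsb4x*, with mouse 1 the higher, and 16 of the 24 leukocyte markers, *Ptprc* among them, were also higher in mouse 1. The leukocyte sum was higher in mouse 2 through the neutrophil genes *S100a8* and *S100a9*, and without them it was 18758 and 18683. Of what remained, *Ly6g* was at 5801 and 7474 in control mice against 2918 and 2549 in *Bmal1* cKO mice. *Cd14* was at 1636 and 5241 against 1479 and 1237. Both were higher in control mouse 2, and together they made up much of the sums of the *Bmal1* cKO mice. *Tmsb10*, *Pfn1*, *Cfl1* and *Arpc1b* hardly differed between the control mice. In bulk samples, fewer cells of a type and less RNA per cell cannot be told apart, and the part of these cell types in the values of the 9 genes was not tested.

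**Figure D4:**
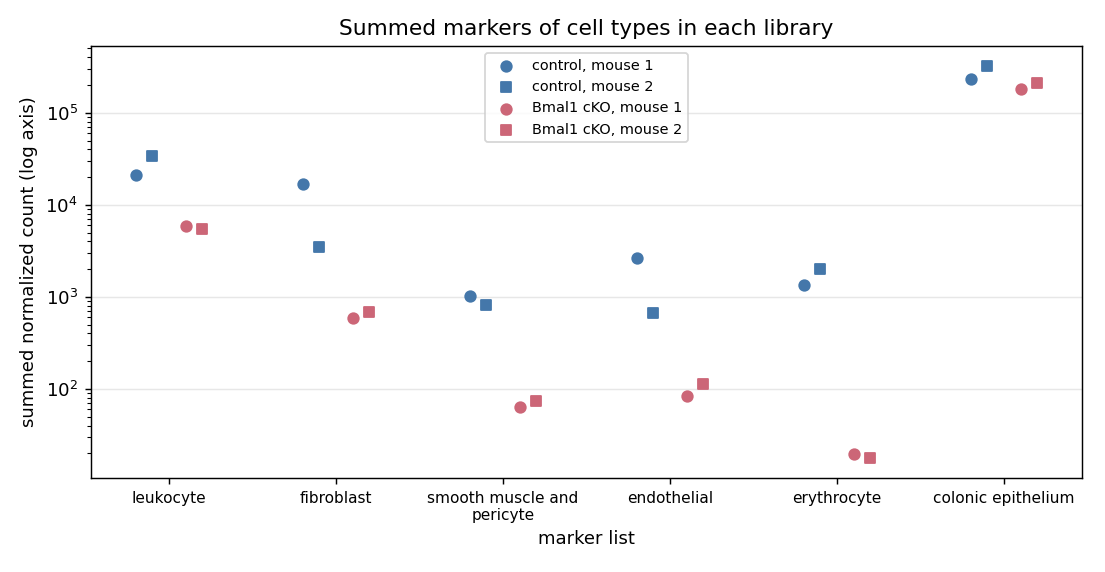
Summed normalized count on a log axis of each list of cell type markers in each library, with control mice in blue and *Bmal1* cKO mice in red, circles for mouse 1 and squares for mouse 2. The sums for leukocytes, fibroblasts, smooth muscle and pericytes, endothelium and erythrocytes are lower in both *Bmal1* cKO mice, while those of the colonic epithelium differ by less than 2-fold.

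The other genes of the actin cytoskeleton were taken from 11 family lists, of which 155 genes were listed and 148 tested. Of these 70 were lower and 34 higher, that is 47.3% and 23.0%, against 27.7% and 29% of all genes. Their median log2 fold change was -0.52 as deposited, 0.082 after the least-squares correction and -0.18 after the robust one. The median of all genes was -0.04, 0.24 and -0.04 in the same order. After the least-squares correction 36 were lower and 41 higher, against 11.1% and 27.6% of all genes, and after the robust correction 43 were lower and 22 higher, against 17.3% and 16.4%. The balance of calls over all genes moved with the correction as well. The values below are log2 fold changes, and a rise or fall is given on the log2 scale.

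The muscle actins, found in smooth and striated muscle, fell for 3 of 3. *Acta2*, the actin of vascular smooth muscle and myofibroblasts, was at 957 and 610 normalized counts in control mice against 1.03 and 17.6 in *Bmal1* cKO mice (log2 fold change -6.96, adjusted p = 0.00333). *Actg2*, the enteric smooth muscle actin, had 167 and 329 against 1.03 and 1.35 (log2 fold change -6.75, adjusted p = 0.000644). Of the 3, 2 passed after each correction.

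Among 17 genes of monomer binding and turnover 7 fell and 5 rose as deposited, 2 fell and 7 rose after the least-squares correction, and 2 fell and 4 rose after the robust one. *Cotl1*, a coactosin that binds filaments, fell by 1.57 on the log2 scale (adjusted p = 0.00154) but was at -0.09 and -0.34 after the corrections and did not pass either. *Gmfg*, the glia maturation factor of leukocytes, was at -2.51 (adjusted p = 0.0117), whereas *Gmfb*, its widely used relative, rose by 1.46 (adjusted p = 0.000533), which was 0.57 and 0.32 after the corrections. *Gmfg* missed the threshold without control mouse 1 (adjusted p = 0.0967) and without control mouse 2 (0.0815).

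Among 12 genes of the Arp2/3 complex and coronins 3 fell and 5 rose as deposited, 1 fell and 6 rose after the least-squares correction, and 2 fell and 3 rose after the robust one. The core subunits *Actr2* (log2 fold change 1.27, adjusted p = 0.00067) and *Arpc5* (1.02, adjusted p = 0.000966) rose, and *Actr2* was at 0.50 and 0.23 after the corrections and did not pass the robust one. *Arpc3*, the gene for another core subunit, fell by 0.84 (adjusted p = 0.0011) and passed as lower after both corrections. *Coro1c* fell by 0.89 (adjusted p = 0.00208) and *Coro7* by 0.88 (adjusted p = 0.0124). *Coro7* missed the threshold without control mouse 1 (0.0907) and without *Bmal1* cKO mouse 2 (0.0796), and did not pass after either correction. *Coro1c* did not pass after the least-squares correction.

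Nucleation promoting factors, which switch on Arp2/3, fell for 7 and rose for 4 of 15 as deposited, for 5 and 5 after the least-squares correction and for 5 and 4 after the robust one. *Hcls1*, the cortactin relative of blood cells, fell by 4.57 (adjusted p = 0.000664) and *Nckap1l*, the blood cell form of a WAVE complex subunit, was at -2.55 (adjusted p = 0.000704). *Nckap1*, the form of other cells, rose by 1.49 (adjusted p = 0.000533) and *Abi1*, another WAVE complex subunit, by 1.01 (adjusted p = 0.000884). *Hcls1*, *Nckap1l* and *Nckap1* passed after both corrections, *Nckap1* at 0.98 and 0.78, and *Abi1* after neither. Formins and their relatives fell for 8 and rose for 4 of 16 as deposited, for 5 and 4 after the least-squares correction and for 6 and 2 after the robust one, with *Fmnl1* at -3.43 (adjusted p = 0.00103), *Fmnl3* at -2.34 (adjusted p = 0.0072), *Fmn1* at 0.82 (adjusted p = 0.00267) and *Diaph2* at 0.83 (adjusted p = 0.00261). *Fmnl3* missed the threshold without control mouse 1 (0.0678) and without *Bmal1* cKO mouse 2 (0.0519), and *Diaph2* did not pass after either correction, at 0.014 by least squares and -0.25 by the robust fit. *Fmnl1* was at -2.28 and -2.59 and *Fmnl3* at -1.45 and -1.75 after the corrections.

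Capping and severing genes fell for 8 and rose for 3 of 18 as deposited, for 2 and 5 after the least-squares correction and for 4 and 0 after the robust one. The capping protein subunits *Capza2* (log2 fold change 1.43, adjusted p = 0.000533) and *Capza1* (1.0, adjusted p = 0.000735) rose, and neither passed after the robust correction, at 0.082 and 0.21. *Capzb*, the gene for their partner subunit, fell by 0.48 (adjusted p = 0.00959) and did not pass after either correction, at 0.033 by least squares and -0.29 by the robust fit. *Eps8l3* was at -1.22 (adjusted p = 0.00722) and *Svil* at -0.71 (adjusted p = 0.0144). *Svil* missed the threshold when any of the 4 libraries was left out (0.0503 to 0.0957) and *Eps8l3* without *Bmal1* cKO mouse 1 (0.0745). *Eps8l3* did not pass after either correction, and *Svil* did not pass after the least-squares one. Crosslinkers and membrane linkers fell for 7 and rose for 7 of 20 as deposited, for 4 and 8 after the least-squares correction and for 4 and 4 after the robust one. Moesin, *Msn*, fell by 3.23 (adjusted p = 0.000533) and the leukocyte plastin *Lcp1* by 2.53 (adjusted p = 0.0012), while the brush border plastin *Pls1* rose by 1.24 (adjusted p = 0.000785), which was 0.71 and 0.48 after the corrections. Radixin, *Rdx*, was at 526 and 238 normalized counts in control mice against 1191 and 658 in *Bmal1* cKO mice (log2 fold change 1.32, adjusted p = 0.05, just inside the threshold), and missed it without control mouse 2 (0.225), without *Bmal1* cKO mouse 1 (0.279) and without *Bmal1* cKO mouse 2 (0.0926). It was at 0.70 and 0.43 after the corrections and did not pass either.

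Tropomyosins and myosins fell for 14 and rose for 2 of 23 as deposited, for 9 and 3 after the least-squares correction and for 11 and 3 after the robust one. The smooth muscle genes *Myl9* (log2 fold change -7.21, adjusted p = 0.00108) and *Myh11* (-6.09, adjusted p = 0.000634) fell most, and the brush border motor *Myo6* rose by 1.26 (adjusted p = 0.000644), which was 0.80 and 0.54 after the corrections. SRF and its coactivators fell for 2 and rose for 0 of 3 as deposited. *Srf*, the gene for serum response factor, was at -1.65 (adjusted p = 0.00272) and its coactivator gene *Mrtfa* at -1.55 (adjusted p = 0.00146). Neither passed after correction, where *Srf* turned to 0.33 and 0.17. The other coactivator gene tested, *Mrtfb*, was nearly level at 0.096 (adjusted p = 0.456). Intermediate filaments other than keratins and *Vim* fell for 5 and rose for 0 of 7 as deposited, for 2 and 2 after the least-squares correction and for 2 and 1 after the robust one, with the muscle filament *Des* at -7.20 (adjusted p = 0.000798) and the lamin *Lmna* at -0.87 (adjusted p = 0.00236). *Lmna* turned to 0.51 after the least-squares correction, where it passed as higher, and to 0.17 after the robust one, where it did not pass.

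**Figure D5:**
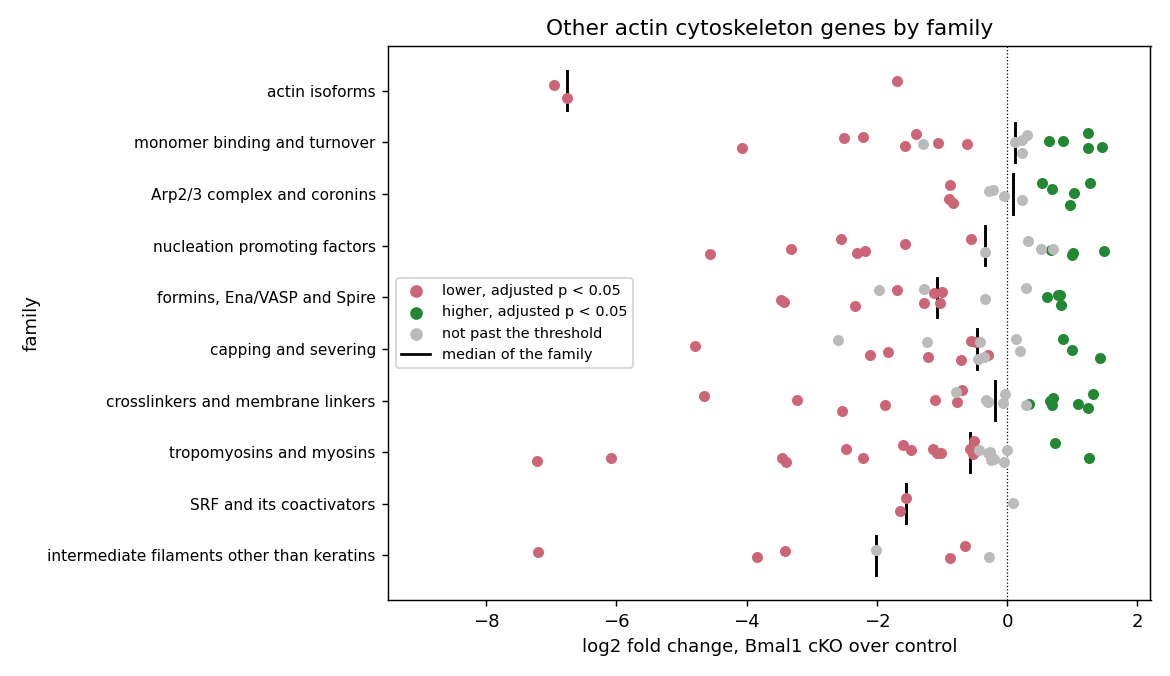
Log2 fold change of *Bmal1* cKO over control for each of the other actin cytoskeleton genes tested, by family (1 family is not shown), with lower genes in red, higher genes in green, genes not past the threshold in grey and the median of each family as a black bar. Most families hold genes on both sides of 0, and the most negative values are those of the smooth muscle genes among the actins, the myosins and the intermediate filaments.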

How the data were processed

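RNA was sequenced from colonic epithelial cells of 2 control and 2 *Bmal1* cKO mice. Per the labels and methods, STAR was used by the authors for alignment to GRCm38 and DESeq2 for normalization. The counter and the annotation release are not given in the sources used here, and the library kit named in the labels (VAHTS) differs from that in the methods (NEBNext). What the authors deposited for each library is a signal, gene counts over the size factor of DESeq2, beside the mean of the libraries. The table also held the authors' own comparison (log2 fold change, standard error, score, p-value and adjusted p-value), which was deposited as DESeq2 made it and was not used. Whole reads were recovered for 100% of the values, within 0.05 of a read.

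The log2 of each value plus a pseudocount of 1 was used, a scale that understates the changes of low genes. The groups were compared for the 13983 genes whose mean reached 10, using the two-sided test of limma 3.58.1 (R 4.3.3) with its trend option. The threshold was an adjusted p of 0.05 after Benjamini and Hochberg. The p-values measure the spread between these mice only. GC content and exon length came from GENCODE M21 on GRCm38, to which 16003 genes were matched. The alternatives were pseudocounts of 0.5 and 5, no filter or a minimum mean of 50, scaling by library total, edgeR 4.0.16 and DESeq2 1.42.0 on the recovered reads, a block for the mouse number, the loess correction (span 0.3) with and without that block, and leaving out each library. The robust loess was added after the values of the least-squares loess had been seen. The limma, edgeR and DESeq2 fits and the least-squares loess were tested on simulated data, and the robust loess and the block were not.

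The 9 genes and all lists were chosen with earlier results of these data known. Further genes named were, for each family, up to 2 that fell and 2 that rose most among those with a mean of at least 100 that passed the threshold, and the 2 genes nearest to each of the 9. The results of 1 family, and of 1 gene of another, are not reported here, although counts over all families include them. *Dstn*, *Arpc1a* and *Coro1b* were named as relatives of the 9, and *Ptprc* and *Epcam* as defining markers. *Arpc3*, *Capzb*, *Mrtfb*, *Krt18*, *Muc2*, *Phgr1*, *S100a8*, *S100a9*, *Ly6g* and *Cd14* were named after their values had been seen. An exact permutation test cannot pass the threshold at 2 mice a group.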

Additional observations from a re-analysis of the deposited data

How the results depend on the processing

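As deposited 3871 genes were lower and 4059 higher. A separate fit after the least-squares correction for GC content and length counted 1546 lower and 3861 higher, and 1608 lower with the replicate block added. The robust loess was chosen after these counts, and the shift of the median that came with them, had been seen. It counted 2421 and 2291, and 1881 and 1872 with the block. Lower genes made up 48.8% of calls as deposited, 28.6% after the least-squares and 51.4% after the robust correction, and 61.2% (4885 lower and 3091 higher) with library total scaling. The median log2 fold change of all genes was -0.04 as deposited, 0.24 after the least-squares correction with or without the block, -0.04 after the robust one, and 0.062 with a mean of at least 50, and library total scaling shifted it by -0.23. Without each library in turn 2205 to 2852 genes were lower and 2654 to 3154 higher, and fewer samples enter these fits.

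The median of the 9 genes was -1.52 with library total scaling and -1.0 after the least-squares correction, with or without the block. *Actb* reversed to 0.59 and 0.27 after the least-squares and the robust correction. *Pfn1* reversed to 0.055 after the least-squares one, where the median of all genes was 0.24. *Actg1* was called higher neither with library total scaling or the block, nor when any of the 4 libraries was left out, and without either *Bmal1* cKO mouse 6 of the 9 genes were called lower. Of the other actin genes 36 were lower after the least-squares correction (36 with the block). After the robust one 43 were lower and 22 higher (38 and 14 with the block). Their median went from -0.52 to 0.082 after the least-squares correction, below the 0.24 of all genes. Among the other actin genes named, those that reversed were *Srf* (0.33 and 0.17), *Lmna* (0.51 and 0.17), *Coro7* (0.14), *Capzb* (0.033) and *Cttn* (0.31) with least squares only, *Ssh3* (0.54 and 0.20) and, with the robust fit, *Cfl2* (-0.030) and *Diaph2* (-0.25), and the block left these values unchanged where it was run (all but *Capzb*, *Cttn* and *Ssh3*). The cause was not tested.

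No litter, batch or day is tied to the mouse numbers, and the deviations of same-numbered mice had a correlation of -0.09. The replicate block without a correction left 3789 genes lower and 3899 higher. Depth limits the precision of genes with few reads, and 2 mice per group that of every value.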

Other observations

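Pairs of related actin regulators, of which the first is known for leukocytes and the second is used widely, were set side by side after their values had been seen, so the choice of pairs carries no evidence of its own. *Was* and *Wasl* encode activators of Arp2/3. *Was* was at 110 and 40.7 normalized counts in control mice against 8.23 and 4.06 in *Bmal1* cKO mice, while *Wasl* had 1750 and 1856 against 3493 and 3697. *Cttn*, the widely used relative of *Hcls1*, had 4120 and 4644 against 3721 and 3214 (log2 fold change -0.34, adjusted p = 0.0565, limma). In both pairs the leukocyte gene had the more negative log2 fold change, as deposited and after both corrections.

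The lists also held kinases that inactivate cofilin and phosphatases that reactivate it, whose members differed in direction. *Limk1*, the less abundant kinase gene, was at 143 and 140 normalized counts in control mice against 8.23 and 6.76 in *Bmal1* cKO mice, with a change of -4.07 on the log2 scale as deposited, -2.95 after the least-squares and -3.28 after the robust correction. *Limk2* had 1816 and 1581 against 1748 and 2260, a log2 fold change of 0.23 (adjusted p = 0.241, limma) that was 1.0 and 0.70 after the corrections and passed as higher after both. Of the phosphatase genes, *Ssh1* had 368 and 304 against 178 and 142, a log2 fold change of -1.07 that was -0.30 and -0.61 after the corrections. *Ssh2* had 993 and 767 against 1769 and 1399, a log2 fold change of 0.85 (adjusted p = 0.0106, limma) that was 0.56 and 0.28 after the corrections and passed after the least-squares one. *Ssh3* had 1232 and 1128 against 829 and 711, a log2 fold change of -0.62 (adjusted p = 0.0081, limma) that was 0.54 after the least-squares correction, where it passed as higher, and 0.20 after the robust one. *Pdxp*, another cofilin phosphatase gene, had 23.7 and 22.02 against 6.17 and 2.70, a log2 fold change of -2.21 (adjusted p = 0.0413, limma) that was -0.26 and -0.41 after the corrections and did not pass either. These genes were named after their values had been seen.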
